A study of Mus musculus with 6 samples.

Results

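Promoters of long noncoding RNA (lncRNA) genes that stand apart from protein-coding genes were examined for CDK6 binding. The members were transcript starts in GENCODE vM21 (mouse genome mm10, GRCm38) of genes annotated as lincRNA, antisense, processed_transcript, sense_intronic or bidirectional_promoter_lncRNA on chromosomes 1 to 19 and X, at least 5000 bp from every transcript start of a protein-coding gene. They comprised 9598 of 130677 annotated starts and belonged to 6699 of 53843 genes. Each promoter was the 2000 bp before and the 200 bp after the start, and a gene counted as having a peak when at least 1 bp of a peak lay in any of its windows.

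CDK6 was measured by ChIP-seq with an antibody against an HA tag in murine BCR-ABL (p185) positive pre/pro-B cell lines. All cells were Cdk6-/- and had been transduced with an overexpressed, HA-tagged protein, either CDK6-WT (2 libraries) or the kinase-inactive mutant CDK6-K43M (2 libraries), so the protein was not at its endogenous level. The comparison addresses whether the kinase activity of CDK6 changes where it sits on chromatin. Peaks had been called in each library separately, and the 4 lists held 34729 to 39797 peaks. The lists contain no read totals, so the depth of the libraries is unknown here. The labels do not say that libraries of 1 variant came from separate cell lines or cultures, so the spread between them may be technical. Promoters of 9 of 10 B-lineage marker genes carried a peak in at least 3 lists, as did 1 of 5 T-cell markers (Cd5) and 0 of 5 myeloid and erythroid markers.

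CDK6 is a cell cycle kinase that binds D-type cyclins and phosphorylates the RB protein, and it also has a role in transcription, although it has no DNA-binding domain of its own. LncRNA genes are transcribed by RNA polymerase II but do not encode a protein. Some act in the nucleus on chromatin or on nuclear bodies, others serve as hosts from whose introns or exons snoRNAs and miRNAs are cut, and many overlap enhancers. Their promoters contain CpG islands less often than those of protein-coding genes.

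The sequences under the strongest summits are shown for 5 of the known lncRNAs and for 4 other genes with a peak in all 4 lists. These 4 had the highest mean percentile of the −log10 q within the lists. The sequences show how unlike each other the bound promoters are. Each run covers 201 bases of the RefSeq GRCm38 assembly, from 100 bp before to 100 bp after the summit with the highest −log10 q, on the strand of the gene. Capitals mark matches to any of 10 short consensus motifs that are spelled out further on.
Snhg5 (chr9:88522992-88523192, minus strand): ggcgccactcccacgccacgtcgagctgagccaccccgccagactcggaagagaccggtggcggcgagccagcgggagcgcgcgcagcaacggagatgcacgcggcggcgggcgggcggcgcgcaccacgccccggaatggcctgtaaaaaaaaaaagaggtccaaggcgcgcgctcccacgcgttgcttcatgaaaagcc
Malat1 (chr19:5803568-5803768, minus strand): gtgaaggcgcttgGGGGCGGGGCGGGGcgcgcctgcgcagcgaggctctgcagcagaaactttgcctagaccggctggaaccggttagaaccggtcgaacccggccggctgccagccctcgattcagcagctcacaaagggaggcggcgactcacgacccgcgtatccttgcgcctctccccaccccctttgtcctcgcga
Snhg15 (chr11:6528737-6528937, minus strand): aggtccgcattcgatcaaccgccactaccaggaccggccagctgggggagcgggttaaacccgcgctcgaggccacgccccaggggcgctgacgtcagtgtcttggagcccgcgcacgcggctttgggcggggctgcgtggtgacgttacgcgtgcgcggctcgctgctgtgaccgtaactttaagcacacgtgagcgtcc
Neat1 (chr19:5846615-5846815, minus strand): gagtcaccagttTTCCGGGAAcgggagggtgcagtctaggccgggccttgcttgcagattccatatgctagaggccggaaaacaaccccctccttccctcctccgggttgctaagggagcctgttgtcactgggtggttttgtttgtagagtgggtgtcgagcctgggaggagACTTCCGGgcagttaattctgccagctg
Dleu2 (chr14:61648749-61648949, minus strand): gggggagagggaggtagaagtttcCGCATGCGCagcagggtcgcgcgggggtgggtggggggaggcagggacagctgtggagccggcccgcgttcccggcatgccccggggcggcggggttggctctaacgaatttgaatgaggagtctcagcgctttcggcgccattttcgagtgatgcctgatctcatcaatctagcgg
Gm15409 (chr5:148959112-148959312, plus strand): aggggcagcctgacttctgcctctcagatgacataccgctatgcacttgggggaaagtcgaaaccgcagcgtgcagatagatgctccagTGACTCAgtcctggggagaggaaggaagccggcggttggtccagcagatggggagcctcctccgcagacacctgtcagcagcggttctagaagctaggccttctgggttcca
BC043934 (chr9:96437973-96438173, minus strand): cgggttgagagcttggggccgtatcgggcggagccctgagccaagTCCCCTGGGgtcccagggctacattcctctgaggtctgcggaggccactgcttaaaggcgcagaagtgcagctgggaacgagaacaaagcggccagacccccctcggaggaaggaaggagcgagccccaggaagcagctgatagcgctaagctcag
Gm31812 (chr1:52113765-52113965, minus strand): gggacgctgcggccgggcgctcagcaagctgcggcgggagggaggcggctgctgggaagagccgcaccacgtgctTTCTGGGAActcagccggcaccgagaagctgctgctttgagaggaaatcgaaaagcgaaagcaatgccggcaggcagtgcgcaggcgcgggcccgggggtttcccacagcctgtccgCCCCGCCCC
Gm30122 (chr10:78264829-78265029, minus strand): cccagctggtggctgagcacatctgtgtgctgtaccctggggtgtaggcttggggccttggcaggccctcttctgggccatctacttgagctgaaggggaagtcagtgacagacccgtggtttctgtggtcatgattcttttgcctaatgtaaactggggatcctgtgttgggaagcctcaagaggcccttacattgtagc
In this display Snhg5 and Snhg15 were rich in CpG but held none of the motifs. Malat1 held 2 overlapping SP1 matches, Neat1 an ETS and a STAT match, and Dleu2 an NRF-1 match. Of the genes known only by a model name or clone number, Gm15409 held an AP-1 match, BC043934 an EBF match, Gm31812 an SP1 and a STAT match, and Gm30122 none.

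CDK6 was found at a small share of the lncRNA promoters, and both variants were found at largely the same ones. Following the study, a gene was called bound by both variants when at least 3 of the 4 lists had a peak there. This held for 388 of 6699 lncRNA genes, or 5.79% (95% Wilson interval 5.26 to 6.38), against 21.2% of all annotated genes. A peak was present in all 4 lists at 310 genes (4.63%), and in at least 1 list at 770 genes (11.5%). Counted by start, 630 of 9598 starts (6.56%) were bound by both. The 388 genes had 373 distinct strongest summits, since neighbouring genes can share a peak. All intervals on shares cover counting error only.

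The number of lncRNA genes with a peak was 515 for CDK6-WT replicate 1 (7.69%), 485 for CDK6-WT replicate 2 (7.24%), 571 for CDK6-K43M replicate 1 (8.52%) and 499 for CDK6-K43M replicate 2 (7.45%). The ranges of the variants overlapped. The mean share was 7.46% ± 0.317 (SD, n = 2) for CDK6-WT and 7.99% ± 0.760 (SD, n = 2) for CDK6-K43M, a difference of 0.522 percentage points. The exact two-sided permutation test over the 6 assignments of the libraries gave p = 0.667, and this design cannot give a p below 0.333. The difference was 0.836 points between the replicate 1 libraries and 0.209 points between the replicate 2 libraries. It was 0.0299 points when every list was shortened to the length of the shortest.

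**Figure D1:**
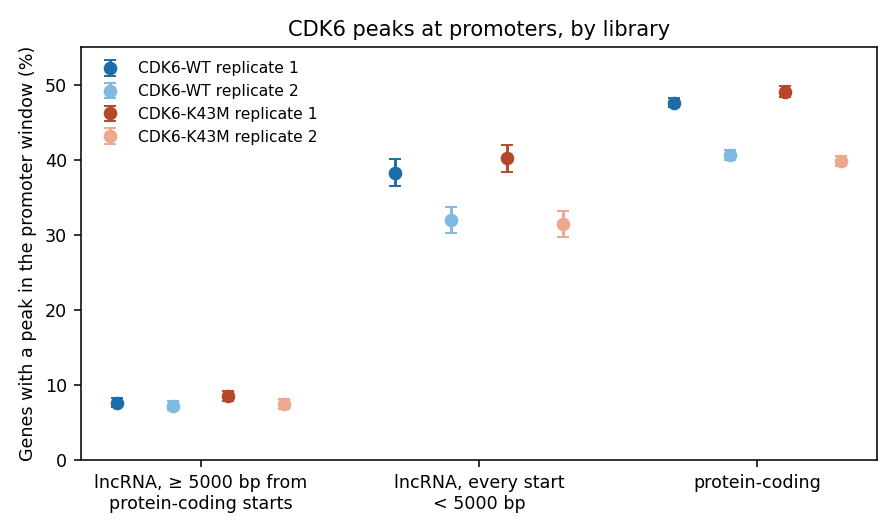
Share of genes with a peak in the promoter window (y axis, percent) for lncRNA genes at least 5000 bp from protein-coding starts, lncRNA genes with every start nearer than that, and protein-coding genes. Points are the 4 libraries and bars 95% Wilson intervals: the distant lncRNA genes lie between 7.24% and 8.52% in every library, the protein-coding genes between 39.8% and 49.1%.

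Few lncRNA genes were particular to a variant. A peak in both CDK6-WT lists and in neither CDK6-K43M list was found at 4 lncRNA genes (0.0597%, against 0.0594% of all annotated genes). The reverse held for 7 genes (0.104%, against 0.158% of all annotated genes). Both shares were near those over all genes. By mean percentile, the 3 highest of the CDK6-WT genes were Gm45609, AC110262.3 and Gm42450, and the 3 highest of the CDK6-K43M genes were 1700017J07Rik, D330050G23Rik and Gm14291.
Gm45609 (antisense, chr2:155093270-155093810) had a fold enrichment of 3.99 in CDK6-WT replicate 1 and 6.42 in replicate 2, at percentiles 1.96 and 56.1 of the lists. Its summit lay 2082 bp upstream of the nearest start, outside the window. AC110262.3 (lincRNA, chr17:23925143-23925386) had a fold enrichment of 4.68 in CDK6-WT replicate 1 and 5.71 in replicate 2, and 1700017J07Rik (lincRNA, chr2:168978091-168978466) had 5.82 in CDK6-K43M replicate 1 and 7.01 in replicate 2, at percentiles 35.8 and 68.9. The counts rose with any 1 of the 4 libraries left out, when 1 list fewer is required or forbidden, to between 13 and 36 for CDK6-WT and between 25 and 72 for CDK6-K43M.

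More lncRNA genes separated by replicate number than by variant. Both replicate 1 lists and no replicate 2 list had a peak at 115 genes (1.72%), against 3.29% of all annotated genes. The opposite class held 81 genes (1.21%), against 0.999% of all annotated genes. For libraries of the same number, 92.4% of the CDK6-WT genes were also in the CDK6-K43M list for replicate 1 (476 genes, 83.4% of the CDK6-K43M list) and 86.2% for replicate 2 (418 genes, 83.8% of the CDK6-K43M list). Libraries of the same variant shared fewer: 349 genes for CDK6-WT, which were 67.8% of replicate 1 and 72.0% of replicate 2, and 360 for CDK6-K43M, 63.0% of replicate 1 and 72.1% of replicate 2. Over all annotated genes the lists shared more. There the CDK6-K43M list held 97.5% of the CDK6-WT genes for replicate 1 and 87.3% for replicate 2, and the shared genes were 78.3% of replicate 1 and 91.2% of replicate 2 with CDK6-WT. The CDK6-K43M values were 74.4% and 91.6%. What the replicate number stands for is not given in the labels.

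Some of these replicate-specific peaks were among the highest in their lists. 1700028E10Rik and D730045B01Rik, on opposite strands of chromosome 5, shared 1 peak (chr5:151368323-151369128) with a fold enrichment of 24.8 in CDK6-WT replicate 1 and 22.5 in CDK6-K43M replicate 1, at percentile 99.9 of both lists, and neither replicate 2 list had a peak there. In the other direction, the peak at Gm16337 (lincRNA, chr3:9754193-9756042) had its summit 2424 bp upstream of the start, outside the window. Its fold enrichment was 18.1 in CDK6-WT replicate 2 and 17.5 in CDK6-K43M replicate 2. Gm47798 (sense_intronic, chr14:16302622-16303073) had 12.6 and 18.6 in these lists. Neither gene had a peak in a replicate 1 list, so at these genes both variants had a peak and only the replicate number separated the lists.

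Protein-coding promoters carried CDK6 far more often than the distant lncRNA promoters in every library. Of 21755 protein-coding genes, 41.8% were bound by both variants, 36.0 percentage points more than the lncRNA genes (95% Newcombe interval 35.2 to 36.9). Within single libraries the difference ranged from 32.4 to 40.6 points and had the same direction in 4 of 4. Protein-coding genes had more starts per gene, and so more windows to be met by a peak. In the window of the most upstream start alone, 36.3% of the protein-coding genes and 5.21% of the lncRNA genes were bound by both. LncRNA genes with every start nearer than 5000 bp to a protein-coding start were in between. Of these 2869 genes 32.3% were bound by both, 26.6 points more than the distant ones (24.8 to 28.4).

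The replicates of a variant had fewer genes in common at the distant lncRNA genes than at the others. The shared genes were 67.8% (63.6 to 71.7) of CDK6-WT replicate 1 and 63.0% (59.0 to 66.9) of CDK6-K43M replicate 1 for distant lncRNA genes, against 80.2% (79.4 to 80.9) and 76.5% (75.7 to 77.3) for protein-coding genes. The total shares do not show this, since distant lncRNA genes in the lists of 1 replicate number alone lay on both sides (115 and 81). The mean of the replicate 1 libraries exceeded that of the replicate 2 libraries by 0.761 percentage points for distant lncRNA genes, by 7.49 points for near lncRNA genes and by 8.13 points for protein-coding genes. The height of the peaks is given here as the percentile of the −log10 q within each list. For lncRNA genes with a peak the median percentile was 59.0 in CDK6-WT replicate 1, 61.0 in CDK6-WT replicate 2, 62.2 in CDK6-K43M replicate 1 and 64.0 in CDK6-K43M replicate 2. For protein-coding genes these medians were 78.9, 59.6, 80.4 and 58.4 in the same order, so that they were higher than the lncRNA medians in the replicate 1 lists alone.

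The peaks at lncRNA genes were centred on the start. Counted around the most upstream member start of each gene, the 2 bins within 250 bp held 17.9 to 22.5 summits per 1000 genes and 250-bp bin in the 4 libraries, and the bins beyond 2000 bp held 4.42 to 5.11, a ratio of 3.69 to 4.39. At protein-coding genes the ratio was 17.9 to 22.9. For the 388 bound genes, the strongest summit lay within 250 bp of an annotated start in 199, or 51.3% (46.3 to 56.2), against 81.2% (80.4 to 82.0) of 9099 bound protein-coding genes. A further 156 bound lncRNA genes (40.2%) had it more than 250 bp upstream, and 33 more than 250 bp downstream. Since the window reached further upstream than downstream, upstream summits had more room. The distance was to the nearest of all starts counted for a gene. Protein-coding genes had more of these (93196 starts for 21755 genes, against 9598 for 6699), so their summits had more chances to lie near one.

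**Figure D2:**
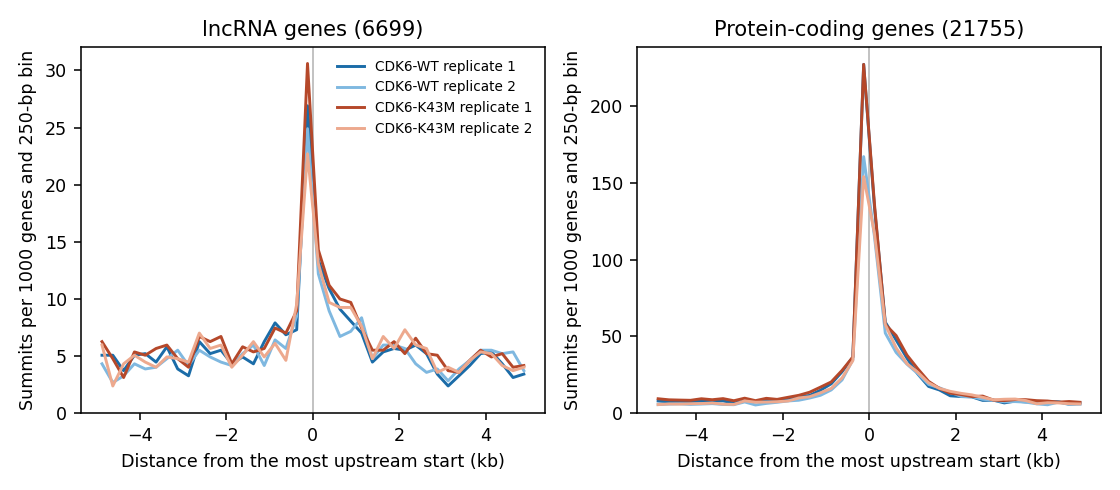
Peak summits per 1000 genes in 250-bp bins (y axis) by distance from the most upstream start (x axis, kb, negative upstream) for lncRNA genes and protein-coding genes, 1 line per library. All 4 libraries have their maximum in the bin just upstream of the start in both panels, and the vertical scales of the panels differ.

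The surroundings of the lncRNA starts were bound less often than the starts. When windows of the same size were moved 10000 bp upstream, 93 of 5490 windows that met no annotated promoter window and stayed 5000 bp from protein-coding starts were bound by both (1.69%, 1.38 to 2.07), against 4.63% (4.10 to 5.21) for the unmoved windows of the same genes. Moved 10000 bp downstream, 107 of 5446 were bound (1.96%, 1.63 to 2.37), against 4.74% (4.20 to 5.33). The unmoved windows, unlike the moved ones, could meet promoter windows of other genes. Over all the lncRNA genes, 10.2% of those with a start of another gene within 5000 bp were bound, against 4.70% of the rest. The lncRNA windows together covered 16.8 Mb. Of 10035 merged regions bound by both with their middle at least 5000 bp from protein-coding starts, 461 overlapped an lncRNA window (4.59%, 4.20 to 5.02).

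Binding differed with the base composition of the promoter, which the choice of the members did not use. The CpG observed to expected ratio, which is near 1 in CpG islands and low in most of the genome, was computed within 500 bp of the most upstream member start, and binding was scored in the window of that start. The share bound by both was 2.62% (2.10 to 3.27) of 2897 lncRNA genes with a ratio under 0.2, 5.04% (4.31 to 5.90) of 2915 with 0.2 to 0.4, 8.51% (6.60 to 10.9) of 646 with 0.4 to 0.6 and 29.5% (24.1 to 35.5) of 241 with 0.6 or more. The intervals of neighbouring classes did not overlap. In each library the class with the highest ratio also had the highest share, 36.5% and 31.1% in CDK6-WT replicates 1 and 2 and 41.1% and 27.8% in CDK6-K43M replicates 1 and 2.

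The 2 kinds of gene differed in how many promoters were CpG-rich, and also within each class. A ratio of 0.6 or more was found at 3.60% of the lncRNA genes and at 46.3% of the protein-coding genes. Within that class 64.2% of the protein-coding genes were bound by both, 34.7 percentage points more than the lncRNA genes (28.6 to 40.2). The difference was 19.5 points (16.6 to 22.0) at 0.4 to 0.6, 5.08 points (3.81 to 6.33) at 0.2 to 0.4 and 1.46 points (0.635 to 2.25) under 0.2. In the near lncRNA genes with a ratio of 0.6 or more, 56.3% were bound.

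**Figure D3:**
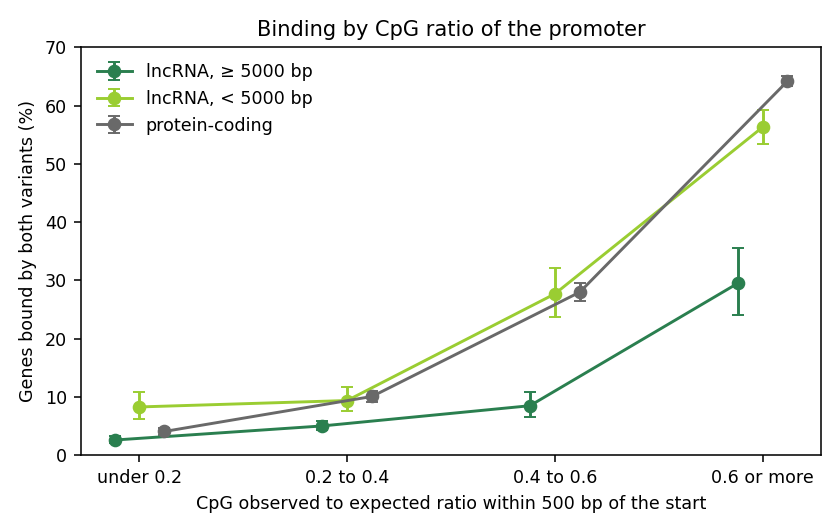
Share of genes bound by both variants (y axis, percent, 95% Wilson intervals) in 4 classes of the CpG observed to expected ratio within 500 bp of the most upstream start (x axis), for distant lncRNA, near lncRNA and protein-coding genes. Distant lncRNA genes go from 2.62% to 29.5% and protein-coding genes from 4.09% to 64.2%.

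The difference between the replicates went with the CpG ratio of the most upstream start, at lncRNA and at protein-coding genes. Here peaks were taken over all windows of a gene, so a peak can lie at a start other than that of the ratio. Among 59 lncRNA genes with a ratio of 0.6 or more and peaks in all 4 lists, the median difference in percentile, replicate 1 minus replicate 2, was 18.2 for CDK6-WT and 25.3 for CDK6-K43M, and replicate 1 was the higher in 46 of the 59 genes for either variant. Among 66 genes with a ratio under 0.2 it was −5.76 and −2.12, and replicate 1 was the higher in 27 and 30 genes. At 0.6 or more the variants differed less, with medians of CDK6-K43M minus CDK6-WT of −0.846 in replicate 1 and 1.66 in replicate 2. Over the 4 CpG classes these medians ran from −1.70 to 4.14. The 4.14 was for replicate 1 under 0.2 and was larger in size than the −2.12 between the CDK6-K43M replicates. For CDK6-WT and CDK6-K43M the replicate medians were −5.26 and 0.242 at 0.2 to 0.4, and 3.68 and 8.42 at 0.4 to 0.6. Of 241 lncRNA genes at 0.6 or more, 18 were in the replicate 1 lists alone and 4 in the replicate 2 lists alone. Of 2897 under 0.2 the counts were 22 and 32. The same counts for protein-coding genes were 768 and 88 of 10072 at 0.6 or more, and 75 and 46 of 4917 under 0.2. For protein-coding genes the median differences with CDK6-WT and CDK6-K43M also rose with the ratio. They were 8.47 and 7.99 under 0.2, and 19.7 and 22.8 at 0.6 or more. The negative sign under 0.2 was not seen there.

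**Figure D4:**
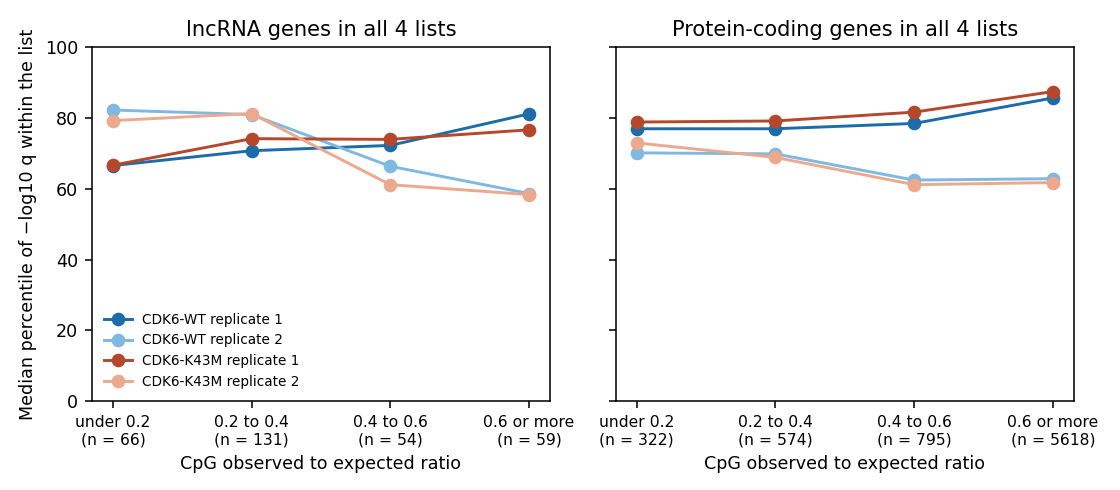
Median percentile of the −log10 q of the best peak within its list (y axis) for genes with a peak in all 4 lists. The x axis gives the CpG observed to expected ratio of the most upstream start. LncRNA genes are on the left and protein-coding genes on the right, with 1 line per library. At lncRNA genes the lines of the replicate 1 and replicate 2 libraries cross, with medians of 66.6 and 66.7 against 82.3 and 79.3 under 0.2 and of 81.2 and 76.7 against 58.7 and 58.4 at 0.6 or more.

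Annotation features also went with the share bound by both. It was 12.2% (9.41 to 15.6) of 427 processed_transcript genes, 5.72% (4.63 to 7.06) of 1415 antisense genes, 5.30% (4.69 to 5.98) of 4626 lincRNA genes and 4.48% (2.45 to 8.06) of 223 sense_intronic genes. None of the 8 bidirectional_promoter_lncRNA genes was bound by both, which allows a share of up to 32.4%. Genes with a transcript of support level 1, the best supported class of GENCODE, were bound in 7.48% (6.53 to 8.56), and genes whose best level was 4 or 5 in 3.06% (2.20 to 4.25). The share was 4.17% (3.66 to 4.74) for genes with 1 distinct member start and 18.2% (14.1 to 23.2) for those with 4 or more, which also had more windows to be met by a peak.

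Distance from protein-coding starts showed a step. The share bound by both was 8.17% (6.49 to 10.2) of 820 genes at 5000 to 10000 bp and 8.35% (7.35 to 9.47) of 2624 genes at 10000 to 50000 bp, which did not differ beyond their intervals. It was 4.34% (3.56 to 5.30) of 2118 genes at 50000 to 200000 bp and 0.880% (0.478 to 1.61) of 1137 genes at 200000 bp or more. A first start within a repeat went with 2.61% (1.90 to 3.57) against 5.91% (5.31 to 6.58) outside repeats. Whether the first start lay between protein-coding genes (5.89%), inside one on the opposite strand (5.59%) or inside one on the same strand (4.87%) did not separate the shares beyond their intervals. RefSeq placed an mRNA start within 5000 bp of 248 member genes, of which 11.3% (7.93 to 15.8) were bound.

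LncRNAs that host small RNAs were bound more often than the rest. Of 54 genes with a snoRNA gene inside them on the same strand, 10 were bound by both, or 18.5% (10.4 to 30.8), against 5.69% (5.16 to 6.27) of the other lncRNA genes. Of 89 genes with a miRNA gene inside them, 14 were bound, or 15.7% (9.61 to 24.7), against 5.66% (5.13 to 6.24). These comparisons are not matched for the number of starts, and genes with 4 or more starts were bound in 18.2% (14.1 to 23.2).

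Of the lncRNAs with known roles, 42 had a member window and 20 of them were bound by both (47.6%, 33.4 to 62.3), against 5.79% of all the lncRNA genes. These genes were listed for being well studied. Many also had several member starts, such as Dleu2 with 11 and Pvt1 with 10. Over all the lncRNA genes the share bound was 4.17% with 1 start and 18.2% with 4 or more. The comparison is not matched for starts. In what follows, where 2 values are given for a variant the first is replicate 1. By group, 8 of 10 genes listed as snoRNA hosts were bound (7 of 9 without Snhg7os, which lies antisense to the host Snhg7), 5 of 10 miRNA hosts, 2 of 4 lncRNAs of nuclear organisation, 2 of 3 p53 and cell cycle lncRNAs, 2 of 11 from X inactivation and imprinting and 1 of 4 from the Hox and immune group. At 14 of the 20 the strongest summit was within 250 bp of an annotated start. A CpG ratio of 0.6 or more at the most upstream member start was found in 11 of the 20.

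Malat1, which localises to nuclear speckles, had one of the highest peaks (chr19:5803077-5804021, 996 bp upstream of the nearest annotated start). Its fold enrichment was 26.2 in CDK6-WT replicate 1, 13.2 in CDK6-WT replicate 2, 23.6 in CDK6-K43M replicate 1 and 7.02 in CDK6-K43M replicate 2. Neat1, the scaffold of paraspeckles and the neighbour of Malat1 on chromosome 19, had 22.6, 7.69, 14.7 and 5.67 in the same order (chr19:5846565-5847126, 1237 bp upstream). At both genes the replicate 1 values were higher than the replicate 2 values for either variant. Firre, an X-linked lncRNA of nuclear organisation, had 4.68 and 5.18 in the replicate 1 lists and no peak in the replicate 2 lists, and Miat had no peak in any list.

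Among the snoRNA hosts, Snhg5 was the most even between libraries (chr9:88522533-88523379, summit 163 bp upstream). Its fold enrichment was 15.6, 12.8, 16.3 and 14.4 in CDK6-WT replicates 1 and 2 and CDK6-K43M replicates 1 and 2, at percentiles 93.4, 94.7, 94.8 and 96.4. Snhg8 was the opposite case, with percentiles of 75.2 and 76.1 in the CDK6-WT and CDK6-K43M replicate 1 lists and 0.953 and 0.651 in the replicate 2 lists, so that its replicate 2 peaks were among the weakest listed. Snhg20 had percentiles of 90.2, 34.0, 92.0 and 0.151 in the order given for Snhg5. Snhg12 and Snhg17 were in all 4 lists, as was Snhg7os, with percentiles from 47.8 to 93.7 over the 3 genes. Snhg15 and Snhg6 had no peak in CDK6-K43M replicate 2. Dancr had a peak in CDK6-K43M replicate 1 alone and Snhg14 had none.

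Of the miRNA hosts, Dleu2, whose miRNAs are lost with it in chronic lymphocytic leukaemia, had the highest mean percentile (chr14:61648364-61649377, summit 27 bp upstream). Its percentiles were 94.5, 59.9, 95.8 and 71.2 in CDK6-WT replicates 1 and 2 and CDK6-K43M replicates 1 and 2. Pvt1, which lies next to Myc, ran the other way (chr15:62038774-62039536), with 64.2 and 80.1 with CDK6-WT, and 34.1 and 83.5 with CDK6-K43M. Mir155hg, the host of a lymphoid miRNA, had 25.3 and 80.6 with CDK6-WT and 74.8 and 83.0 with CDK6-K43M, so at these last 2 genes replicate 2 was the higher for both variants. Mir17hg, which hosts an oncogenic miRNA cluster, and Mir670hg were also in all 4 lists. The summit at Mir17hg lay 2210 bp upstream, outside the window that its peak overlapped. Mir124-2hg, Mir124a-1hg, Mir133a-1hg, Mir9-3hg and Mir99ahg, of which the miR-124 and miR-9 hosts are neuronal, had no peak in any list.

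Among the p53 and cell cycle lncRNAs, Trp53cor1, a p53 target that neighbours the CDK inhibitor gene Cdkn1a, had percentiles of 80.1 and 87.5 with CDK6-WT, and 72.1 and 76.5 with CDK6-K43M. Lockd, downstream of the CDK inhibitor gene Cdkn1b, had 88.0 and 34.0 with CDK6-WT and 84.5 and 30.2 with CDK6-K43M (chr6:134928076-134928970). At Lockd the replicates of either variant were far apart, and at Trp53cor1 they were close. Pantr1 had no peak in any list. In the Hox and immune group, Nron, which holds back the nuclear import of NFAT, was in all 4 lists. Its summit lay 2079 bp upstream of the nearest start, outside the window. Ptgs2os2, an immune-response lncRNA, was in both replicate 2 lists only, at percentiles 86.3 and 92.4. Hotair, from the Hoxc cluster, and Ifngas1 had no peak.

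LncRNAs of X inactivation and imprinting were mostly without a shared peak. Xist, which coats and silences the inactive X chromosome, and its antisense partner Tsix had no peak in any list. Ftx, an activator of Xist, had percentiles of 48.0 and 43.9 for CDK6-WT, 55.2 for CDK6-K43M replicate 1 and no peak in CDK6-K43M replicate 2 (chrX:103622296-103622655, summit 1 bp upstream). Jpx had a peak in CDK6-K43M replicate 1 alone. Of the imprinted lncRNAs, Peg13, inside Trappc9, was in all 4 lists at percentiles of 56.6 and 52.1 with CDK6-WT, and 73.3 and 42.9 with CDK6-K43M. Meg3 and Kcnq1ot1 were in both replicate 1 lists only, at percentiles from 12.5 to 28.5, and Airn, H19, Rian and Mirg had no peak.

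**Figure D5:**
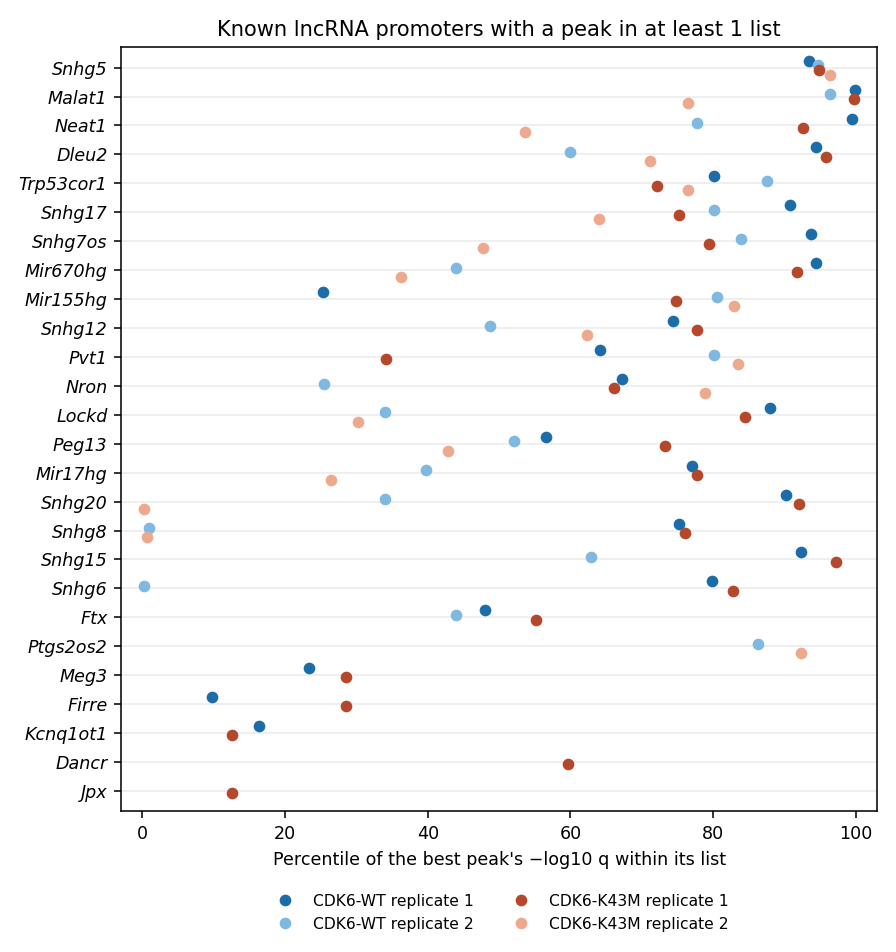
Percentile of the −log10 q of the best overlapping peak within its list (x axis) for the 26 known lncRNAs with a peak in at least 1 list (y axis), 1 point per library that had a peak. Of the 17 genes in all 4 lists, 12 are higher in replicate 1 than in replicate 2 for both variants and 4 are lower for both.

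Among the lncRNA genes with a peak in all 4 lists, the 8 with the highest mean percentile were not on the list of known lncRNAs. That list named only 42 of the 6699 lncRNA genes. The 8 were Gm15409, BC043934, Gm31812, Gm30122, Gm45805, Gm14029, 4930580E04Rik and Gm43838, with means from 95.3 to 97.3. The known lncRNAs Snhg5 and Malat1 had means of 94.8 and 93.1. By fold enrichment in CDK6-WT replicate 1, Malat1 (26.2) was above each of the 8. Gm15409 (lincRNA, chr5:148958797-148960270, summit 66 bp upstream) had a fold enrichment of 22.5 and 10.1 with CDK6-WT and 23.8 and 11.9 with CDK6-K43M, replicates 1 and 2. Gm30122 (lincRNA, chr10:78264716-78265407, summit 790 bp upstream) had 14.0 and 21.5 with CDK6-WT, and 18.9 and 16.0 with CDK6-K43M. Gm14029 (antisense, chr2:129183634-129184281) had 13.9 and 15.7 with CDK6-WT and 15.5 and 15.8 with CDK6-K43M. At Gm15409 the replicate 1 values were the higher for either variant, and at Gm14029 the 4 values were close. Of the 8 genes, 7 were at least 11470 bp from a protein-coding start.

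Some bound lncRNA genes neighbour genes of growth control. The list of neighbours named genes of B-cell identity and of growth control. Of 48 lncRNA genes whose nearest protein-coding start belonged to that list, 9 were bound by both, or 18.8% (10.2 to 31.9), against 5.70% (5.17 to 6.28) of the other lncRNA genes. The 9 were nearest to 8 protein-coding genes, all listed for growth control and none for B-cell identity. How the 48 genes divided between growth control and B-cell identity was not counted, so this gives no contrast between them. AC163629.2 and AC163635.1 were nearest to the kinase gene Pim1, Gm12606 to the CDK inhibitor gene Cdkn2a, Gm27201 to Fli1 and Gm47680 to Ets1, both ETS factors. Gm42435 was nearest to Cdk6 itself, Gm43635 to the D-type cyclin gene Ccnd2, Lockd to Cdkn1b and Pvt1 to Myc.

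Gm47680 had the highest mean percentile of these, with 83.1 and 93.8 with CDK6-WT, and 87.7 and 90.4 with CDK6-K43M (chr9:32612868-32613550), 22769 bp from the nearest start of Ets1. AC163635.1 had 91.4 and 92.6 with CDK6-WT and 96.9 and 70.5 with CDK6-K43M, 53305 bp from Pim1. Gm12606, 8789 bp from Cdkn2a, had a fold enrichment of 7.12 and 3.08 with CDK6-WT, and of 4.58 and 6.04 with CDK6-K43M, so that neither the variants nor the replicates separated. The peak at Gm42435 (chr5:3501014-3503147) was 2134 bp wide, lay inside the Cdk6 gene and overlapped none of its annotated exons. Its summit was 2603 bp upstream of the start, outside the window.

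The bound lncRNA promoters held motifs of both promoter and distal CDK6 sites. Motifs were searched on both strands within 100 bp of the strongest summit of each merged region bound by both, as exact matches to CCGGAAGT (ETS), GAGGAAGT (ETS of the PU.1 type), GCGCATGCG (NRF-1), GGGGCGGGG (SP1), CCAATCA (NFY), TGTGGTT (RUNX), CCCNNGGGA (EBF), CNAGGGGGC (CTCF), TGANTCA (AP-1) and TTCNNNGAA (STAT). The letters of ETS and ETS of the PU.1 type share their last 6 bases but cannot match at 1 place, and some matches of different motifs can overlap. Of 384 such summits in lncRNA windows and outside protein-coding windows, 47.9% held at least 1 of the motifs, against 47.5% of all 22973 regions bound by both.

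The motifs found most often at the lncRNA summits were EBF (12.2%, 9.33 to 15.9), RUNX (10.9%, 8.19 to 14.5) and ETS of the PU.1 type (8.33%, 5.96 to 11.5), the motifs of factor families with roles in early B cells. Over all regions bound by both the shares were 11.2%, 9.38% and 6.35%. In equally wide flanks centred 1000 bp before and after the lncRNA summits they were 2.60%, 5.73% and 1.69%. The motifs differ in length and in positions open to any base, so these shares do not rank them by enrichment. Relative to the flanks ETS had the largest excess, at 11 of 384 summits (2.86%) against 1 of 768 flank windows (0.130%). CTCF was at 2.60% against 0.391%, and NRF-1 at 3 of 384 summits against 1 of 768 flank windows. The ETS and NRF-1 comparisons rest on few matches. RUNX had a smaller relative excess than ETS, CTCF or NRF-1. Compared with summits in protein-coding windows, the lncRNA summits had RUNX more often, with a difference, protein-coding minus lncRNA, of −7.11 percentage points (−10.6 to −4.34). ETS of the PU.1 type and EBF had differences of −4.85 (−8.07 to −2.45) and −4.68 (−8.38 to −1.72) in the same sense. AP-1 was at 7.29% of the lncRNA summits and at 3.58% of the protein-coding ones, and STAT at 7.81% and 5.18%. In the flanks AP-1 was at 5.21% for the lncRNA summits and 5.17% for the protein-coding ones, and STAT at 5.47% and 6.38%. The protein-coding summits lay below their flanks. The lncRNA summits lay above theirs, but by little against counting error. The intervals at the lncRNA summits were 5.09 to 10.3 for AP-1 and 5.53 to 10.9 for STAT, and the flanks carry none.

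Motifs of CpG-rich promoters were less frequent at lncRNA summits than at protein-coding ones. SP1 was at 4.17% (2.58 to 6.66) against 13.1% of 9226 summits in protein-coding windows, a difference of 8.96 points (6.38 to 10.7). ETS was at 2.86% (1.61 to 5.06) against 8.34%, a difference of 5.47 points (3.21 to 6.86), and NRF-1 at 3 of 384 summits (0.781%) against 3.46%, a difference of 2.68 points (1.14 to 3.32). NFY and CTCF did not differ beyond the interval, which ran from −1.49 to 2.93 for NFY and from −1.18 to 2.22 for CTCF. In the flanks of the lncRNA summits SP1 was at 1.17%, and NFY at 2.73% against 4.69% at the summits. Over all regions bound by both, SP1 was at 6.02%, ETS at 3.86%, NRF-1 at 1.59%, NFY at 3.44%, CTCF at 2.67%, AP-1 at 7.13% and STAT at 7.59%.

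Summits of distal regions gave the other bound of the comparison. These were 9657 regions bound by both, at least 5000 bp from protein-coding starts and outside lncRNA windows. SP1 was at 0.756% of them, 3.41 percentage points less than at the lncRNA summits (distal minus lncRNA −3.41, interval −5.91 to −1.81). For NFY the difference was −2.96 (−5.57 to −1.23) and for ETS −2.20 (−4.40 to −0.931). For the other 7 motifs, NRF-1 (−2.01 to 0.00732), CTCF (−2.97 to 0.384), RUNX, EBF, AP-1, STAT and ETS of the PU.1 type, the interval of the difference included 0. The median −log10 q was 20.5 for the lncRNA regions, 23.9 for the regions in protein-coding windows and 17.4 for the distal regions, and 76.3%, 75.4% and 69.1% of them were in all 4 lists.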

How the data were processed

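ChIP-seq with an anti-HA antibody was analysed in 2 CDK6-WT and 2 CDK6-K43M libraries, grouped by their titles. Input libraries (2) exist in the series and are not analysed here. Per the submitters' processing notes, the authors used Trimmomatic 0.36 for trimming, BWA 0.7.15 for alignment to mm10, bedtools and SAMtools 1.3.1 for filtering and MACS2 2.1.0 for calling peaks, and the study's methods state default settings and removal of blacklisted and multimapping reads. The deposited lists give the fold enrichment (a ratio), p-value and q-value as −log10, a score of 10 times the −log10 q and the summit offset of each peak, and start at a −log10 q of 1.31 to 1.34. They hold no read totals.

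Promoter windows came from GENCODE vM21 and overlaps were counted with Python 3.11.15, numpy 2.4.6, pandas 2.3.3 and pysam 0.24.0. The code was tested on 3000 simulated windows with 0 wrong calls and against bedtools 2.31.1 with 0 differences. The study defined shared and unique sites on DiffBind regions, whereas windows were used here. Shares carry 95% Wilson intervals and differences Newcombe intervals, which treat genes as independent although neighbours can share a peak. Named genes were all listed known lncRNAs with a member window, the 8 highest by mean percentile among genes in all 4 lists, the 3 highest unique to each variant, the 2 highest per replicate number and bound genes next to listed neighbours. The list of known lncRNAs further named Gas5, Tug1, Zfas1 and others whose starts all lie near protein-coding starts and which are therefore not members. The summit sequence of 1 known lncRNA and the neighbour of 1 gene are not reported here. The members, lists and motifs were chosen with earlier results of these data known. Alternatives covered peak thresholds, list lengths, windows, distances, annotation support, a replicate block and each library left out in turn.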

Additional observations from a re-analysis of the deposited data

How the results depend on the processing

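Distance, transcript support and the absence of other gene starts were changed for the lncRNA genes alone. The share of lncRNA genes bound by both variants (5.79%) was 4.61% when peaks had to reach a −log10 q of 5, 2.54% for 10, 1.73% with the top 10000 peaks per list, 5.12% in windows of 500 bp to either side, 6.92% with transcript support level 1 or 2, 4.83% with no start of another gene within 5000 bp, 6.56% by distinct start and 6.64% to 7.45% with 1 library left out, when 2 of 3 lists from both variants were required. The difference from protein-coding genes (36.0 points) was 29.7 for a −log10 q of 5, 15.1 for 10, 11.5 with the top 10000 peaks, 37.1 on autosomes, 34.9 with support level 1 or 2, 37.0 with no other start nearby, 29.1 by distinct start and 32.3 to 40.0 with 1 library left out, always in the same direction. CDK6-WT-unique lncRNA genes (4) numbered 1 for a −log10 q of 5, 2 for 10, 0 with the top 10000 peaks, 2 in the 500 bp windows, 2 at 10000 bp from protein-coding starts, 1 with support level 1 or 2 and 13 to 36 with 1 library left out. CDK6-K43M-unique genes (7) numbered 4 at a minimum −log10 q of 5, 4 with equal list lengths, 3 with the top 10000 peaks and 25 to 72 with 1 library left out. The difference CDK6-K43M minus CDK6-WT (0.522 points) was −0.0970 with the top 10000 peaks and −0.0149 to 1.06 with 1 library left out, and leaving out CDK6-K43M replicate 1 turned its sign. With a replicate block (paired differences) it was 0.522, as without. With 2 pairs no test can pass, and the labels do not say that numbers mark a shared origin. Why these values moved was not tested. Of 91 such values under alternatives, 51 stayed within the counting interval, the spread of the libraries or 1.5 times the count, and 40 did not. With members also 5000 bp from RefSeq mRNA starts, an alternative chosen after seeing the data, the share bound by both was 5.58%.

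With the strongest summit of each gene in place of each region, all 20 motif shares under a minimum −log10 q of 10 or support level 1 or 2 stayed within their intervals. The share of summits within 250 bp of a start was 49.4% and 59.5% under these settings, and the share bound in the highest CpG class 9.96% and 36.4%. Binding in that class was the highest under both. The lists give no depth, the threshold of each list limits what counts as no peak, and no peak in a list does not show absence of CDK6.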
